A study of Mus musculus with 3 samples.

Results

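The genes described here encode coagulation and fibrinolysis factors: clotting proteases and their cofactors, fibrinogen, the inhibitors of clotting, and the enzymes that dissolve clots. Members were picked by gene symbol, by a rule that uses no measured value, but with earlier results of these data known. Of 32 genes listed, 31 were found by identifier among the 37620 genes of the tables, and Klkb1, which encodes plasma prekallikrein, was not analysed here. Gene expression had been measured by mRNA sequencing in 3 libraries of primary hepatocytes from C57BL/6 mice, labelled passage 1. These were 2 libraries from cells given tauroursodeoxycholic acid (TUDCA), a taurine-conjugated bile acid, labelled 100 mM for 24 h, and 1 library from cells labelled DMSO, the solvent, with no time given. All cultures were prepared by collagenase perfusion and grown on gelatin in medium with serum and insulin, per the labels' protocols. The comparison asks which of these genes TUDCA modulates. A difference in culture time cannot be told apart from the treatment, and the dose is printed as labelled. The design text speaks of 2 separate experiments and no label ties a library to either, and what separates the pair given TUDCA may thus be technical alone.

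Hepatocytes make most plasma clotting factors and secrete them. Clotting starts when tissue factor binds factor VII, runs through a cascade of proteases to thrombin, and ends when thrombin turns fibrinogen into fibrin. Antithrombin, heparin cofactor II and the protein C, S and Z systems hold the cascade in check, and plasmin, formed from plasminogen by tissue-type or urokinase-type activators, dissolves the fibrin. Fibrinogen is also an acute phase protein that the liver makes in larger amounts in inflammation.

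TUDCA cells had higher levels of all 3 fibrinogen chain genes and of Proz (protein Z) and a lower level of Plaur, the urokinase receptor. In such bulk RNA, fewer cells of a type cannot be told apart from less RNA per cell. Of the 31 genes found, 29 passed the filter on low values, which kept genes averaging 1 RPKM or more across the libraries. RPKM are reads scaled by the length of the gene and by the reads of the library. By limma with Benjamini-Hochberg adjustment over all 11300 genes tested, at a threshold of 0.05, 4 of these 29 were called higher with TUDCA. Over all genes tested, 1.77% were called higher. Plaur was the 1 member called lower, against 0.876% of all genes tested, and 24 members were not called. In either direction that is 5 of 29 members, against 2.65% of all genes tested. The median log2 fold change, on the log2(RPKM + 1) scale, was 0.31 over the 29 members and 0.04 over all genes tested. Without the fibrinogen chain genes the median of the other 26 members was 0.22, and that of 6 hepatocyte marker genes was 0.38. These calls rest on 1 residual degree of freedom, from the pair of TUDCA libraries, and on the spread shared by genes of similar level, so p-values are too small where the TUDCA pair is far apart. With no filter limma called none of the 19146 genes above 0, the members included, and 1696 of them had an unadjusted p below 0.05.

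The fibrinogen chain genes Fgg, Fga and Fgb, which neighbour each other in the RefSeq gene order of mouse chromosome 3, are shown first by the 250 bases before each start, since these genes carry the main difference. The sequences are from RefSeq on GRCm38.p6, 5′ to 3′ on the strand of the gene, while the sources used here do not give the build behind the deposited tables. They lie at chr3:83007474-83007723 (plus strand) for Fgg, chr3:83025903-83026152 (plus strand) for Fga and chr3:83049864-83050113 (minus strand) for Fgb. Capitals mark matches, on either strand, to the letters CTGGGAA (the core of a STAT3-type acute phase element), TTGCNNAA (a C/EBP site) and GTTAAT (the core of an HNF1 site), and no matches overlapped.
Fgg: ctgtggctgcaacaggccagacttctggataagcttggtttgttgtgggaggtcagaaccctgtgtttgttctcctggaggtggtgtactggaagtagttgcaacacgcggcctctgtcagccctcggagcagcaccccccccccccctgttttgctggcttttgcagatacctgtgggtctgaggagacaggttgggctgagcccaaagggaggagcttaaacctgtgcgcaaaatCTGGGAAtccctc
Fga: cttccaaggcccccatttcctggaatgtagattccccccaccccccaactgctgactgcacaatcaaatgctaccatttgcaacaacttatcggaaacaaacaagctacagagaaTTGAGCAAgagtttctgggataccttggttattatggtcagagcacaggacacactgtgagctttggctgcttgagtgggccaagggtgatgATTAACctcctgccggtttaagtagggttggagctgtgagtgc
Fgb: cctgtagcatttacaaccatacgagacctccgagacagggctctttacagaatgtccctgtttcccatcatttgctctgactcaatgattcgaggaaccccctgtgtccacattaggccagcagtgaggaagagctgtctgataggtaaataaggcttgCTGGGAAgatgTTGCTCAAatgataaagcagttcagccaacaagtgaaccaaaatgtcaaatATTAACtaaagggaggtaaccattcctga

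Fgb held 1 match to each of the 3 motifs, at 91 bases (CTGGGAA), 80 bases (TTGCNNAA) and 29 bases (GTTAAT) before its start. Fga held TTGCNNAA at 135 bases and GTTAAT at 43 bases before its start, both on the opposite strand. Fgg held CTGGGAA at 13 bases before its start. Among 32851 RefSeq promoter windows of the same length, 9.1% held CTGGGAA, 9.56% TTGCNNAA and 6.43% GTTAAT. Promoters were at hand for 25 of the 32 listed genes, and 4, 8 and 5 of these held CTGGGAA, TTGCNNAA and GTTAAT. A match describes the letters and shows no binding.

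Fgb (ENSMUSG00000033831), which encodes the fibrinogen beta chain, had 2529.8 and 1884.9 RPKM in TUDCA replicates 1 and 2, against 914.3 RPKM in the DMSO library. Both TUDCA libraries lay above DMSO, and the rise was called (log2 fold change 1.26 ± 0.20 SE, limma adjusted p = 4.3e-08). Fga (ENSMUSG00000028001), the alpha chain gene, had 1588.3 and 1064.6 RPKM with TUDCA and 540.6 RPKM in DMSO. It rose by the same log2 fold change (1.26 ± 0.20, limma adjusted p = 3.0e-08). Fgg (ENSMUSG00000033860), the gamma chain gene, had 824.9 and 378.7 RPKM with TUDCA and 264.9 RPKM in DMSO. It rose too (log2 fold change 1.07 ± 0.20, limma adjusted p = 9.0e-06), but its TUDCA libraries lay far apart. The ratio to DMSO was 3.11 for Fgg in replicate 1 and 1.43 in replicate 2, and its call was lost with robust estimation and after correction for GC content and length (adjusted p = 0.164 and 0.0928). With no filter and with a filter at 0.3 RPKM, the calls of Fgg, Fga and Fgb were all lost. By size alone, Fgb was the 1 member whose log2 fold change reached 1 in both TUDCA libraries, which 0.77% of all genes tested showed, and Fga stood at 1.55 and 0.98.

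Within a library, the chain genes kept unequal levels. Fga had 0.628 and 0.565 times the RPKM of Fgb in the TUDCA libraries and 0.591 times in DMSO, so the DMSO ratio lay between those of TUDCA. Fgg had 0.326 and 0.201 times the RPKM of Fgb with TUDCA and 0.290 times in DMSO, again with DMSO in between. Summed over the chains, fibrinogen transcripts made up 0.692% and 0.453% of all RPKM in the TUDCA libraries and 0.236% in DMSO. The other 28 genes found made up 0.604% and 0.560% with TUDCA and 0.532% in DMSO.

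**Figure D1:**
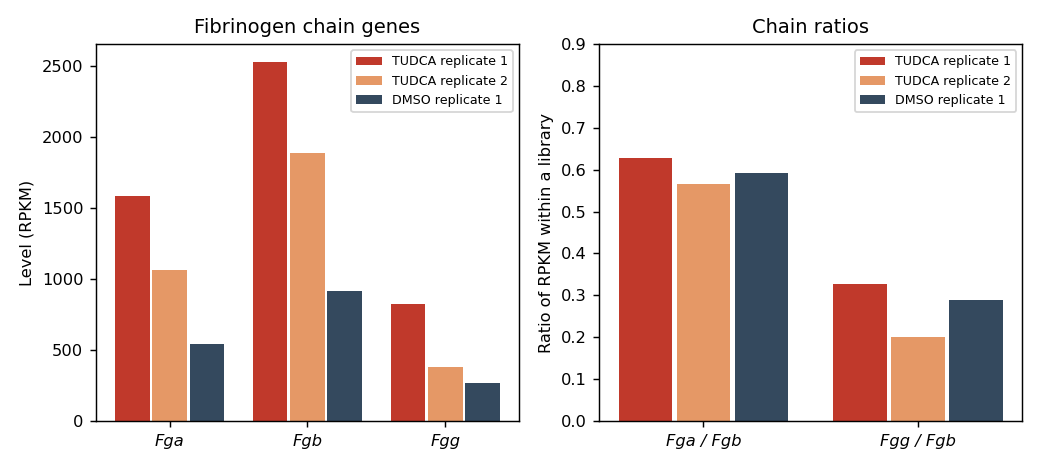
Left, RPKM of the fibrinogen chain genes in each library, 1 bar per library. Right, RPKM of Fga and Fgg divided by that of Fgb within each library. All 3 genes are higher in both TUDCA libraries than in DMSO, while the DMSO ratios (0.591 and 0.290) lie between those of the TUDCA libraries.

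The members covered a wide range of levels, and most of the order was shared by the libraries. Of the 29 members tested, 12 lay above the 90th percentile of all genes tested by mean RPKM, 10 lay between the 50th and the 90th percentile and 7 below. In DMSO the highest was Vtn (vitronectin, an adhesive plasma protein) at 1152.0 RPKM, followed by Fgb and Fga. In both TUDCA libraries Fgb was the highest, and Fgg stood at ranks 4 and 6, against 8 in DMSO. Plau, which encodes urokinase, and Thbd, the thrombin receptor thrombomodulin, were the lowest members tested.

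**Figure D2:**
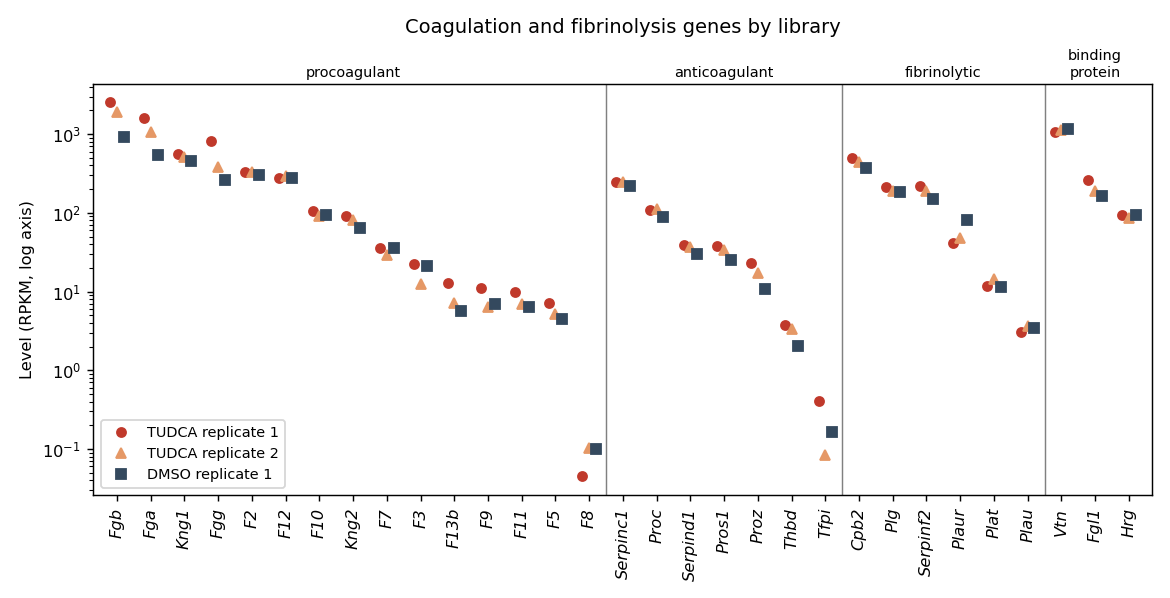
RPKM on a log axis of the 31 genes found, grouped by role and ordered within a role by mean level, with 1 point per library. DMSO lies below both TUDCA libraries for 20 of the 29 members tested, among them the fibrinogen chain genes and Proz. It lies above both for 3, Plaur among them. F8 and Tfpi lie far below all others.

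Among procoagulant genes, 3 of 14 tested were called higher, the fibrinogen chains, none lower and 11 were not called. Of all genes tested, 1.77% were called higher. The median log2 fold change of the procoagulant members was 0.29, with 0.54 in TUDCA replicate 1 and 0.14 in replicate 2. The trigger of the cascade, F3 (tissue factor), had 22.4 and 12.6 RPKM with TUDCA and 21.4 RPKM in DMSO, which lay between them (limma adjusted p = 0.760). F7, the protease that tissue factor binds, had 36.1 and 29.5 RPKM with TUDCA and 36.0 RPKM in DMSO. F2, which encodes prothrombin, had 326.4 and 333.8 RPKM with TUDCA and 302.4 RPKM in DMSO (log2 fold change 0.13, 95% interval -0.26 to 0.52). F10, the protease that cleaves prothrombin, had 104.3 and 91.2 RPKM with TUDCA and 93.1 RPKM in DMSO. The groups overlapped for F10 and not for F2, and neither gene was called.

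The factors of the intrinsic pathway were expressed at unlike levels. F12, the contact factor that starts the pathway, had 277.4 and 294.7 RPKM with TUDCA and 278.7 RPKM in DMSO. F11, the protease that F12 activates, had 9.82 and 6.91 RPKM with TUDCA and 6.37 RPKM in DMSO. F9, the protease that factor XI activates, had 11.2 and 6.33 RPKM with TUDCA and 6.96 RPKM in DMSO. For F11 both TUDCA libraries were above DMSO, and for F9 and F12 they lay on either side of it. The cofactor gene F5 had 7.24 and 5.17 RPKM with TUDCA and 4.53 RPKM in DMSO, and F13b, the carrier subunit of the fibrin-crosslinking factor XIII, had 12.8 and 7.20 RPKM with TUDCA and 5.63 RPKM in DMSO. F13b had the highest fold change among members not called, 0.68 ± 0.28 on the log2 scale (limma adjusted p = 0.257), with 1.06 in replicate 1 and 0.31 in replicate 2.

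Kininogen, the cofactor of contact activation and source of bradykinin, is encoded by Kng1 and Kng2 in the mouse. Kng1 had 551.6 and 506.1 RPKM with TUDCA and 460.3 RPKM in DMSO, and Kng2 had 91.7 and 80.2 RPKM with TUDCA and 63.4 RPKM in DMSO. Both were above DMSO in both TUDCA libraries without being called (limma adjusted p = 0.840 for Kng1 and 0.449 for Kng2). As paralogs of similar sequence they may share reads, and their separate levels are uncertain. F8, the cofactor of factor IX that is mainly made by endothelium, did not pass the filter. Its reads were 2 and 5 in the TUDCA libraries and 5 in DMSO. These are the smallest whole numbers that give the RPKM values, and the true counts may be multiples of them. Exact 95% Poisson intervals of these smallest counts cover counting error only. They were 0.242 to 7.23 and 1.62 to 11.7 reads with TUDCA and 1.62 to 11.7 reads in DMSO. A difference in F8 was not detectable at this depth.

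**Figure D3:**
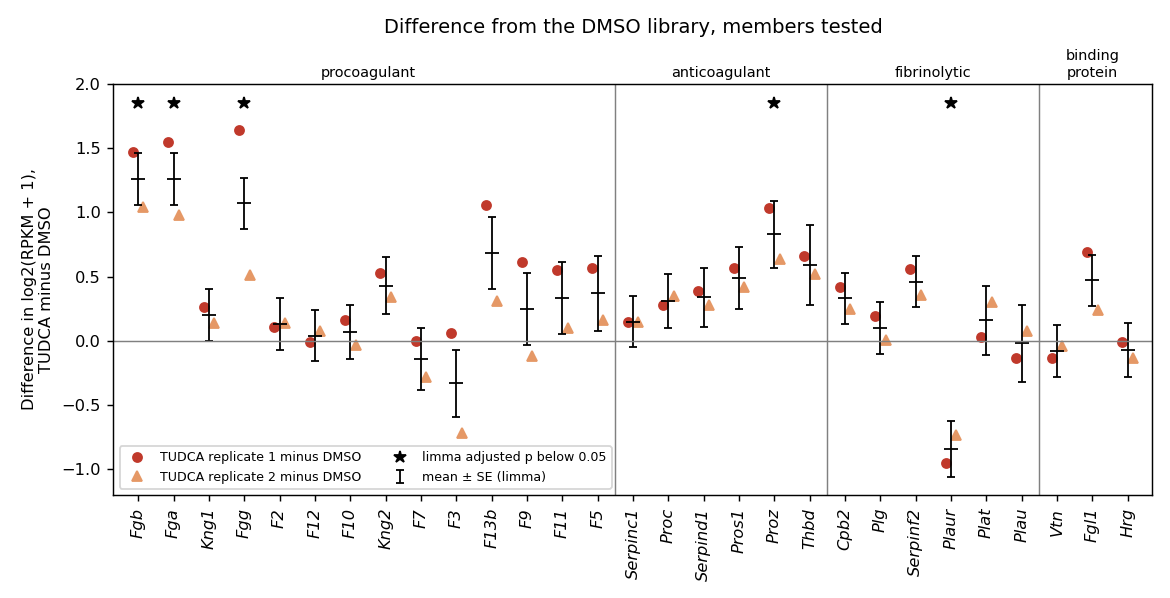
Difference in log2(RPKM + 1) of each TUDCA library from the DMSO library for the 29 members tested, with their mean and its limma SE. Stars mark the 5 members with a limma adjusted p below 0.05, and Plaur is the 1 star below 0.

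All 6 anticoagulant genes tested lay above DMSO in both TUDCA libraries. Of these 6, Proz was the 1 called higher, against 1.77% of all genes tested. The median log2 fold change of the 6 was 0.42, with 0.48 in replicate 1 and 0.38 in replicate 2. DMSO lay below both TUDCA libraries for 20 of all 29 members, against 40.5% of all genes tested, and above both for 3, against 30.4%. Proz (ENSMUSG00000031445), the cofactor that directs an inhibitor to factor Xa, had 23.0 and 17.3 RPKM with TUDCA and 10.8 RPKM in DMSO. The rise passed narrowly (log2 fold change 0.83 ± 0.26, limma adjusted p = 0.0487). It was lost under 8 of 11 other settings, among them voom on the reads recovered from the RPKM values (adjusted p = 0.0813) and quantile normalization (adjusted p = 0.152). Serpina10, which encodes the inhibitor that protein Z directs, was on the list of other inhibitors and was called higher as well. It had 80.1 and 62.6 RPKM with TUDCA and 42.0 RPKM in DMSO (log2 fold change 0.74 ± 0.22, limma adjusted p = 0.0352), a call lost under 6 of 11 other settings. These were no filter, a filter at 0.3 RPKM, quantile normalization, median centring, no variance trend and voom (adjusted p = 0.591, 0.381, 0.0617, 0.180, 0.177 and 0.0635).

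In the protein C system, Proc (protein C, which inactivates factors V and VIII) had 107.1 and 111.9 RPKM with TUDCA and 87.9 RPKM in DMSO. Its cofactor gene Pros1 (protein S) had 37.7 and 33.9 RPKM with TUDCA and 25.1 RPKM in DMSO. Thbd, on which thrombin activates protein C, had 3.80 and 3.38 RPKM with TUDCA and 2.05 RPKM in DMSO. None of the 3 was called, with limma adjusted p = 0.676, 0.405 and 0.477. Procr, the endothelial protein C receptor and a gene of the receptor list, was called lower. It had 10.6 and 12.2 RPKM with TUDCA and 26.9 RPKM in DMSO (log2 fold change -1.18 ± 0.26, limma adjusted p = 6.1e-04).

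Neither of the serpins that inhibit thrombin was called. Serpinc1, which encodes antithrombin, had 245.3 and 245.9 RPKM with TUDCA and 221.6 RPKM in DMSO (log2 fold change 0.15, 95% interval -0.25 to 0.54). Serpind1, heparin cofactor II, had 39.5 and 36.5 RPKM with TUDCA and 29.8 RPKM in DMSO (limma adjusted p = 0.699). Tfpi, the inhibitor of the tissue factor complex and a product of endothelium, did not pass the filter. Its smallest whole counts were 9 and 2 reads in the TUDCA libraries and 4 reads in DMSO. The Poisson intervals of these counts, 4.12 to 17.1 and 0.242 to 7.23 reads with TUDCA and 1.09 to 10.2 reads in DMSO, overlapped.

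Among fibrinolytic genes, 1 of 6 tested was called lower, 5 were not called and none was higher, with a median log2 fold change of 0.13. Of all genes tested, 0.876% were called lower. Plaur (ENSMUSG00000046223), the receptor that holds urokinase at the cell surface, fell to 41.1 and 48.0 RPKM with TUDCA, against 80.3 RPKM in DMSO (log2 fold change -0.84 ± 0.22, limma adjusted p = 0.00967). The TUDCA libraries lay close together and both below DMSO. The call was lost with quantile normalization and without the variance trend (adjusted p = 0.0602 and 0.0850). It was also lost with no filter and with a filter at 0.3 RPKM (limma adjusted p = 0.55 and 0.234). Plau, the ligand of that receptor, had 3.02 and 3.67 RPKM with TUDCA and 3.41 RPKM in DMSO, which lay between them (log2 fold change -0.02, 95% interval -0.62 to 0.57). Plat, tissue-type plasminogen activator, had 11.7 and 14.4 RPKM with TUDCA and 11.5 RPKM in DMSO.

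Plg, which encodes plasminogen itself, had 210.8 and 187.1 RPKM with TUDCA and 185.1 RPKM in DMSO. Serpinf2, the plasmin inhibitor alpha-2-antiplasmin, had 221.0 and 191.6 RPKM with TUDCA and 149.1 RPKM in DMSO (log2 fold change 0.46 ± 0.20, limma adjusted p = 0.314). Cpb2, a carboxypeptidase that trims fibrin so that it binds less plasminogen, had 504.6 and 446.8 RPKM with TUDCA and 376.5 RPKM in DMSO (limma adjusted p = 0.596). Both inhibitors of fibrinolysis were higher in both TUDCA libraries, and neither was called.

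None of the 3 binding proteins was called. Vtn had 1055.3 and 1124.2 RPKM with TUDCA and 1152.0 RPKM in DMSO, and Hrg, the histidine-rich glycoprotein that binds heparin and plasminogen, had 94.2 and 86.5 RPKM with TUDCA and 94.5 RPKM in DMSO. Fgl1, a secreted protein with a fibrinogen-like domain, had 261.6 and 190.7 RPKM with TUDCA and 161.4 RPKM in DMSO (log2 fold change 0.47 ± 0.20, limma adjusted p = 0.304). Fgl1 was higher in both TUDCA libraries, whereas Vtn and Hrg were lower in both.

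The 7 members that need vitamin K for carboxylation (F2, F7, F9, F10, Proc, Pros1 and Proz) had a median log2 fold change of 0.25, and Proz was the 1 called. F7, F10 and Proz neighbour each other on chromosome 8, yet their log2 fold changes were -0.14, 0.07 and 0.83. Hrg, Kng2 and Kng1 are neighbours on chromosome 16, with log2 fold changes of -0.07, 0.43 and 0.20. Of these runs of neighbours, the fibrinogen genes were the one in which every member was called. Of the vitamin K cycle and the export of clotting factors, none of 4 genes tested was called. The carboxylase gene Ggcx had 10.0 and 8.17 RPKM with TUDCA and 7.52 RPKM in DMSO, and the cargo receptor gene Lman1 had 67.5 and 45.6 RPKM with TUDCA and 67.0 RPKM in DMSO.

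Over all 30 other pathway genes found of 31 listed, 21 were tested, 1 was called higher (Serpina10), 1 lower (Procr) and 19 were not called. Of all genes tested, 1.77% were called higher and 0.876% lower. The median log2 fold change of the 21, 0.04, equalled that of all genes tested. Among other factors and proteases none of 5 tested was called. Tgm2, a tissue transglutaminase, had 597.6 and 606.6 RPKM with TUDCA and 890.6 RPKM in DMSO (limma adjusted p = 0.108), and Hpn, the membrane protease hepsin, had 225.0 and 273.7 RPKM with TUDCA and 207.4 RPKM in DMSO. Of 7 receptors tested, Procr was the 1 called. Lrp1, which clears protease and inhibitor complexes, had 216.9 and 181.1 RPKM with TUDCA and 133.0 RPKM in DMSO (limma adjusted p = 0.127).

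**Figure D4:**
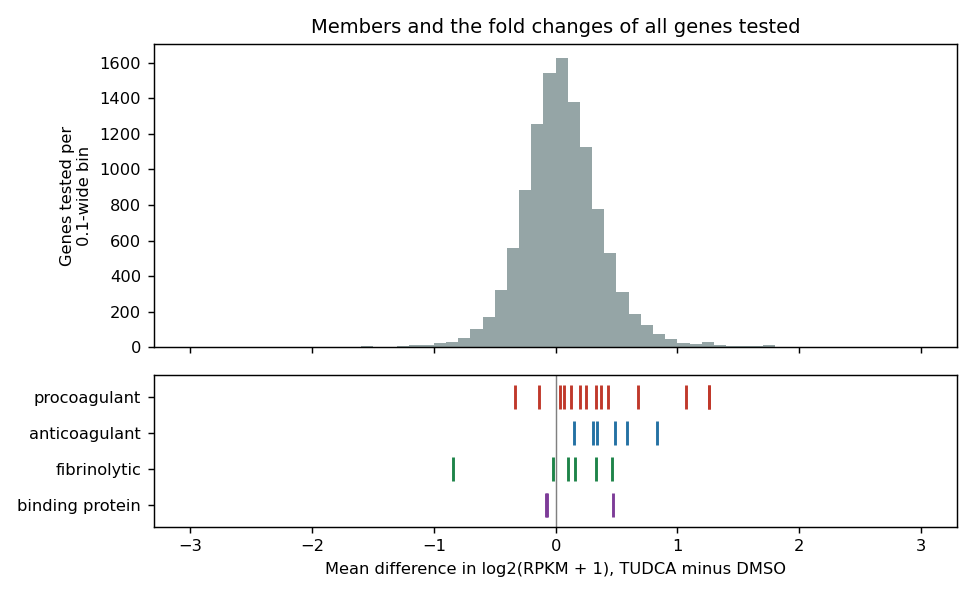
Top, number of genes per bin of the mean difference in log2(RPKM + 1), TUDCA minus DMSO, over the 11300 genes tested. Bottom, 1 tick per member tested, by role: the anticoagulant ticks all lie right of 0, the fibrinogen ticks farthest right, and Plaur (-0.84) farthest left.

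The TUDCA libraries themselves differed by a median absolute 0.21 on the log2 scale over members, against 0.20 over all genes tested. TUDCA replicate 1 was the higher of the pair for 21 of 29 members (72.4%), against 53.2% of all genes tested, and the median difference, replicate 1 minus replicate 2, was 0.18 over members and 0.02 over all genes. With TUDCA replicate 1 alone set against DMSO the median log2 fold change of the members was 0.39, and with replicate 2 alone it was 0.16. Totals behind the RPKM values were 9757547 and 10575699 reads with TUDCA and 10774289 reads in DMSO. The members tested had between 67 and 40581 reads in a library, as the smallest whole numbers that give the RPKM values of all 3 libraries.

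The hepatocyte label was checked against marker genes, and other cell types that make some of these factors were measured beside it. The 6 hepatocyte markers summed to 10780.4 and 9796.6 RPKM with TUDCA and 9311.1 RPKM in DMSO, and Hnf4a was the 1 of them called (higher, limma adjusted p = 0.0123). Alb made up most of these sums, at 7176.6 and 6111.2 RPKM with TUDCA and 5770.8 RPKM in DMSO. Cps1, the lowest of the 6, had 5.79 and 6.08 RPKM with TUDCA and 2.62 RPKM in DMSO. The median log2 fold change of the 6 was 0.38. Of them, 5 lay above DMSO in both TUDCA libraries and 1 below it in both. The Hnf4a call was lost under some settings, among them median centring and no variance trend (limma adjusted p = 0.153 and 0.16). The 8 markers of liver endothelium, a source of F8, Tfpi, Thbd and Procr, summed to 5.00 and 3.97 RPKM with TUDCA and 3.08 RPKM in DMSO. Of these, 2 passed the filter. Lyve1 was listed at 0 in DMSO, and Clec4g at 0 in DMSO and in TUDCA replicate 1. The 8 macrophage and Kupffer cell markers summed to 194.3 and 208.6 RPKM with TUDCA and 204.2 RPKM in DMSO. Cd68 made up most of these sums, at 154.3 and 169.4 RPKM with TUDCA and 170.4 RPKM in DMSO. Platelet markers summed to 7.20 and 5.72 RPKM with TUDCA and 6.55 RPKM in DMSO, with Gp1bb and Treml1 listed at 0 in all libraries. Markers of stellate cells and fibroblasts summed to 12.7 and 11.01 RPKM with TUDCA and 14.6 RPKM in DMSO, and none of those tested was called in these last 4 lists. Of 6 cholangiocyte markers, Spp1 alone was called (higher), and the list summed to 803.8 and 627.4 RPKM with TUDCA and 419.2 RPKM in DMSO. Spp1 made up most of these sums, at 767.5 and 578.2 RPKM with TUDCA and 387.5 RPKM in DMSO. Its call was lost under some settings, among them median centring and no variance trend (limma adjusted p = 0.136 and 0.134). Krt7 and Epcam did not pass the filter, and Cftr was listed at 0 in all libraries. The 8 epidermal keratinocyte markers summed to 5749.3 and 5747.2 RPKM with TUDCA and 9718.2 RPKM in DMSO. Sprr1a made up most of these sums, at 5590.9 and 5625.5 RPKM with TUDCA and 8877.1 RPKM in DMSO. Of this list, 4 of 5 tested were called lower (Krt5, Lor, Sprr1a and Crct1), against 0.876% of all genes tested. Plaur and Procr were called lower too. Krt10 was not called, and Krt14 and Krt1 were listed at 0 in all libraries. The calls of Sprr1a and Lor were lost under some settings, among them correction for GC content and length (limma adjusted p = 0.0724 and 0.0629). The part of any of these markers in the results was not tested.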

How the data were processed

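The authors deposited 1 table of RPKM values per library. CASAVA, TopHat2 2.0.7, Bowtie2 and HTSeq are named, without roles, per the submitters' processing notes. For the genome build, annotation and strand setting, nothing is given in the sources used here. Reads of overlapping antisense genes therefore cannot be told apart. Symbols came from GENCODE M21 by identifier (32897 of 37620, and 11149 of the 11300 genes tested).

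Genes averaging 1 RPKM or more were fitted as log2(RPKM + 1), TUDCA (n = 2) against DMSO (n = 1), with limma 3.58.1 in R 4.3.3 (eBayes with a variance trend, Benjamini-Hochberg, threshold 0.05). DMSO, a single library, was taken to vary as the TUDCA pair does. The prior degrees of freedom came out infinite, and each gene took the common spread at its level (SD 0.159 to 0.265). Alternatives changed the pseudocount, filter, scaling or variance model, used voom, corrected for GC content and length, or left out a TUDCA library. The pseudocount understates fold changes of low genes. An exact permutation test of 3 libraries could not go below p = 0.333 (one-sided), so none was run.

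Library totals and the smallest whole reads were recovered from the RPKM steps for all 19146 genes above 0. The tolerance was 1e-09 reads or, for large counts, relative to the count. The smallest whole reads add up to 95.7 to 95.8% of the totals. The fit was run on simulated data in which every gene had the same spread beyond counting error. Such data cannot test the calls of genes whose TUDCA libraries lie far apart. The members, their roles and all lists were chosen with earlier results of these data known. Motifs were chosen after the values were seen. The rule for named genes took every member and, of each other list, the genes past the threshold and the 2 with the largest fold changes. A gene it takes in is not reported here. Marker genes taken in only by size, apart from Cps1, are given within their list's sum. Some other markers are named to show what makes up a list.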

Additional observations from a re-analysis of the deposited data

How the results depend on the processing

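The direction of all 5 called members (Fga, Fgb, Fgg and Proz higher, Plaur lower) was the same under each of 11 alternatives and in each TUDCA library alone. Their calls rest on the filter on low values. The count of members called higher was 0 in place of 4 with no filter and with a filter at 0.3 RPKM, and the count called lower was 0 in place of 1. Over all genes, 299 were called at the filter of 1 RPKM, 26 at 0.3 RPKM and 0 with no filter. After correction for GC content and length 2 members were called higher (Fga and Fgb). With quantile normalization and without the variance trend 0 members were called lower. Proz was also lost at a filter of 5 RPKM, with median centring, without the trend and with GC and length corrected (adjusted p = 0.0516, 0.112, 0.0885 and 0.0522). Over the 29 members under 11 alternatives, less Thbd and Plau at 5 RPKM, which they did not reach, 297 results stayed on their side of the threshold, 20 were lost and 0 were gained. All 20 losses fell on the 5 called members, and most of the 297 were members not called under any setting.

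The median log2 fold change of anticoagulant members was 0.34 in place of 0.42 with no filter, at a filter of 5 RPKM and with median centring, and that of fibrinolytic members was 0.06 in place of 0.13 with median centring. Leaving out either TUDCA library, the medians ranged from 0.14 to 0.54 for procoagulant, from 0.38 to 0.48 for anticoagulant and from 0.11 to 0.17 for fibrinolytic members, with no test since 1 library then stands against 1. The fold change of F9, F10 and Plau changed sign without TUDCA replicate 1, and that of F3, F7 and F12 without TUDCA replicate 2. Depth limits F8 and Tfpi, whose smallest whole counts were at most 9 reads in a library. No paired analysis was possible because the groups share 1 replicate number, DMSO being a single library. The cause of these shifts was not tested.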
